A study of Rattus norvegicus with 6 samples.

Results

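The 7 protein subunits of respiratory complex I that rat mitochondrial DNA encodes were followed through liver RNA libraries of control, HCC and HCC/NAC rats. These are Mt-nd1 (ENSRNOG00000030644), Mt-nd2 (ENSRNOG00000031033), Mt-nd3 (ENSRNOG00000033615), Mt-nd4l (ENSRNOG00000031053), Mt-nd4 (ENSRNOG00000029707), Mt-nd5 (ENSRNOG00000029971) and Mt-nd6 (ENSRNOG00000029042). The genes were chosen by these Ensembl gene IDs, 7 of the 43360 IDs in the count tables, and all 7 were among the 16898 IDs that passed the filter on low counts. The choice was made with the results of all 3 group comparisons of these libraries known. The levels and differences of these genes are therefore given as a description and carry no test.

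Complex I, NADH:ubiquinone oxidoreductase, passes electrons from NADH to ubiquinone and pumps protons across the inner mitochondrial membrane. Its matrix arm is built from nuclear-encoded proteins, whereas the mitochondrial subunits form the core of the membrane arm. In mammals the mitochondrial genome is transcribed as long precursors from both strands, which are then cut into single RNAs. Mt-nd6 lies on the opposite strand to the 6 other genes. Hepatocytes are rich in mitochondria, and complex I is a known site of superoxide formation.

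The animals were male Fischer-344 rats, an inbred strain, and the design text lists 18 of them in 3 groups. Controls received the oral vehicle, 0.5% carboxymethyl cellulose, daily. The HCC group received diethylnitrosamine (DEN), an alkylating liver carcinogen, at 50 mg/kg weekly by intraperitoneal injection, followed by oral 2-acetylaminofluorene (2-AAF), an aromatic amine carcinogen, at 25 mg/kg. Rats of the HCC/NAC group were given both carcinogens at these doses together with N-acetylcysteine (NAC) by mouth at 300 mg/kg daily. Cells can draw cysteine from NAC to make glutathione. Liver injury was induced over 16 weeks, and week 16 is given for the libraries of all 3 groups. Both libraries of a group came from the pooled RNA of 5 animals, whom the extraction protocol calls mice, so no value belongs to a single animal. The titles mark both libraries of a group as biological replicates (biol_rep). The labels do not say whether these held different animals or were drawn from the same pool, and the spread between them may be technical. The tissue label, liver, was not checked against marker genes, because no symbols were paired with the other IDs.

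Libraries held between 33917707 and 37717373 counts. The lowest count of any of these genes in any library was 39060, and the 95% Wilson interval of a gene's share of its library extended at most 0.991% of the value to each side. Such intervals cover counting error only. The deposited names give both control libraries 1 prefix and the 4 libraries of carcinogen-treated rats another. If that prefix stands for a batch, batch and carcinogen treatment cannot be told apart, whereas HCC and HCC/NAC share a prefix. In whole tissue, fewer cells of a type and less RNA per cell cannot be told apart either.

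Together the 7 genes took the smallest part of the library in control liver and the largest in HCC/NAC liver. Their summed share of all counts was 3.23% and 3.13% in the control libraries, 4.66% and 4.57% in the HCC libraries, and 8.59% and 8.86% with NAC. The groups did not overlap, and the libraries of a group lay close together. The mean share was 3.18% ± 0.075 (SD, n = 2) for control, 4.61% ± 0.061 (SD, n = 2) for HCC and 8.72% ± 0.19 (SD, n = 2) for HCC/NAC. As shares, each of the 7 genes was higher in both libraries of the first-named group in all 3 comparisons. Of all IDs tested this held for 57.4% in HCC against control, 35.3% in HCC/NAC against control and 15.1% in HCC/NAC against HCC. The share was thus 1.45-fold higher in HCC than in control, 2.74-fold higher in HCC/NAC than in control and 1.89-fold higher in HCC/NAC than in HCC.

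A share falls when other transcripts take more of the library, so the genes were also expressed as CPM, which here are counts relative to a library size scaled by TMM. This scaling estimates a single factor for each library, on the assumption that most genes do not differ between libraries. The TMM factors were 0.92 and 0.91 in control, 1.19 and 1.18 in HCC, and 0.92 in both HCC/NAC libraries. On this scale the summed level was 34675 ± 642 CPM (SD, n = 2) for control, 38822 ± 215 CPM (SD, n = 2) for HCC and 95058 ± 2489 CPM (SD, n = 2) for HCC/NAC. HCC was 1.12-fold above control, a much smaller step than on the scale of shares. HCC/NAC was 2.74-fold above control and 2.45-fold above HCC. The step from HCC to HCC/NAC was larger than that from control to HCC on both scales, and most of the gap between HCC and control in the shares was absent after TMM scaling.

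**Figure D1:**
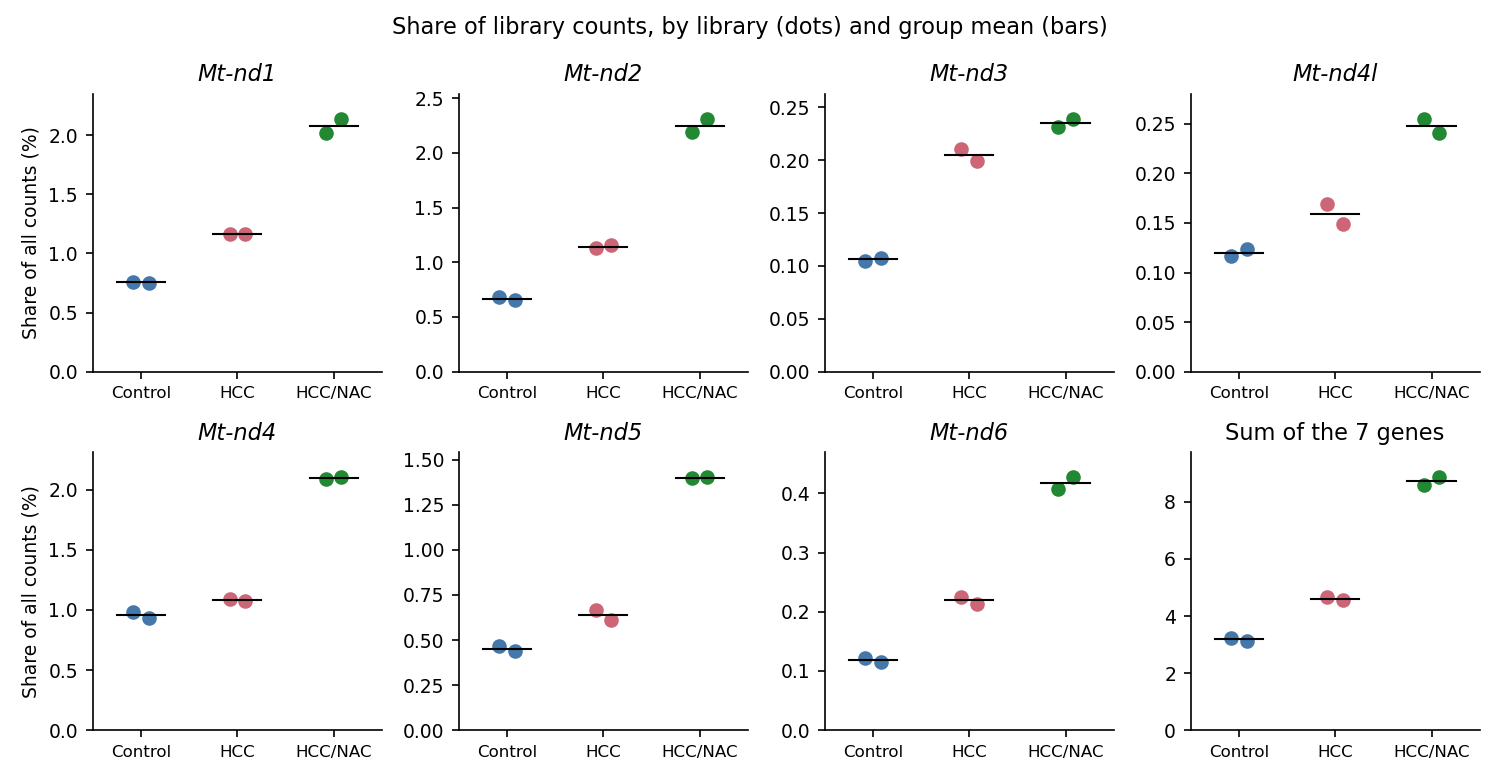
Share of all counts of a library, in percent, for each gene and for their sum, with 1 dot per library and a bar at the mean of the 2 libraries of a group. For every gene both HCC libraries lie above both control libraries and both HCC/NAC libraries lie above both HCC libraries, and the sum runs from 3.13% in a control library to 8.86% in an HCC/NAC library.

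Mt-nd1 encodes the subunit at the base of the membrane arm, beside the ubiquinone channel. It had 8281 and 8220 CPM in the control libraries, 9761 and 9848 CPM in HCC, and 21941 and 23370 CPM in HCC/NAC. Both HCC libraries were just above the controls, and both HCC/NAC libraries were far above all others. The log2 fold change was 0.25 ± 0.025 (SE) in HCC against control and 1.21 ± 0.025 (SE) in HCC/NAC against HCC. The SEs here and below rest on the spread between libraries of pooled RNA, which may be technical. They therefore need not reflect differences between animals. Its share of all counts was 0.757%, 1.16% and 2.08% on average in control, HCC and HCC/NAC.

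Mt-nd2, Mt-nd4 and Mt-nd5 encode the large subunits of the membrane arm that resemble sodium-proton antiporters and are thought to carry protons. Mt-nd2 had 7379 and 7165 CPM in control, 9462 and 9777 CPM in HCC, and 23768 and 25246 CPM in HCC/NAC. Its mean was higher in each step, with a log2 fold change of 0.40 ± 0.028 (SE) in HCC against control and 1.35 ± 0.028 (SE) in HCC/NAC against HCC. Among all IDs Mt-nd2 ranked 21st by count in both control libraries, 9th and 8th in the HCC libraries and 7th in both HCC/NAC libraries.

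Mt-nd4 was the only one of the 7 with a lower mean in HCC than in control on the TMM scale. It had 10674 and 10243 CPM in control, 9122 and 9102 CPM in HCC, and 22702 and 22972 CPM in HCC/NAC. Its log2 fold change was -0.20 ± 0.020 (SE) in HCC against control, 1.13 ± 0.021 (SE) in HCC/NAC against control and 1.33 ± 0.021 (SE) in HCC/NAC against HCC. The direction in HCC depended on the scale: as a share of all counts, Mt-nd4 went from 0.982% and 0.936% in control to 1.09% and 1.08% in HCC, which is 1.13-fold higher.

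Mt-nd5 encodes the subunit at the far end of the membrane arm. It had 5058 and 4789 CPM in control, 5574 and 5188 CPM in HCC, and 15180 and 15323 CPM in HCC/NAC. The HCC libraries stood apart from the controls by less than they differed from each other, whereas HCC/NAC stood well above both. The log2 fold change was 0.13 ± 0.033 (SE) in HCC against control, and 1.50 ± 0.033 (SE) in HCC/NAC against HCC was the highest of the 7 genes in that comparison. Without HCC replicate 1 the value in HCC against control was 0.079.

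Mt-nd3, Mt-nd4l and Mt-nd6 encode the small membrane subunits between Mt-nd1 and the antiporter-like subunits. Mt-nd3 carries a matrix loop that in mammals is exposed in the deactive form of the enzyme. It had 1140 and 1179 CPM in control, 1760 and 1687 CPM in HCC, and 2518 and 2613 CPM in HCC/NAC. Its steps were even, unlike those of the other genes, at 0.57 ± 0.034 (SE) on the log2 scale in HCC against control and again 0.57 ± 0.034 (SE) in HCC/NAC against HCC. As shares of all counts, Mt-nd3 was 1.93-fold higher in HCC than in control, the highest such ratio of the 7, and 1.15-fold higher in HCC/NAC than in HCC, the lowest.

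Mt-nd4l had 1266 and 1356 CPM in control, 1414 and 1262 CPM in HCC, and 2772 and 2626 CPM in HCC/NAC. Control and HCC overlapped, with the lowest value of all 6 libraries in an HCC library, and only HCC/NAC stood apart. The log2 fold change was 0.030 ± 0.052 (SE) in HCC against control and 1.01 ± 0.052 (SE) in HCC/NAC against HCC. Without single libraries the value in HCC against control ran from -0.051 (without HCC replicate 1) to 0.15 (without control replicate 2). The HCC libraries differed more for this gene than for any other of the 7, with a coefficient of variation of 8.02%. In mammals the Mt-nd4l and Mt-nd4 reading frames overlap on 1 shared messenger RNA, and how reads in the overlap were counted is not given in the sources used here, so both counts are uncertain to that extent.

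Mt-nd6 had 1331 and 1269 CPM in control, 1882 and 1806 CPM in HCC, and 4418 and 4668 CPM in HCC/NAC. Its mean was higher in each step, with log2 fold changes of 0.50 ± 0.036 (SE) in HCC against control and 1.30 ± 0.036 (SE) in HCC/NAC against HCC. Against control, HCC/NAC was 3.49-fold higher, the highest ratio of the 7 in that comparison. Mt-nd6 lies next to Mt-nd5 on the opposite strand. The strand setting of the counting is not given in the sources used here, and without strand, reads from Mt-nd6 and from antisense RNA over it cannot be told apart. The libraries were also poly(A)-selected, and how well that step captured Mt-nd6 beside the other genes was not tested.

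**Figure D2:**
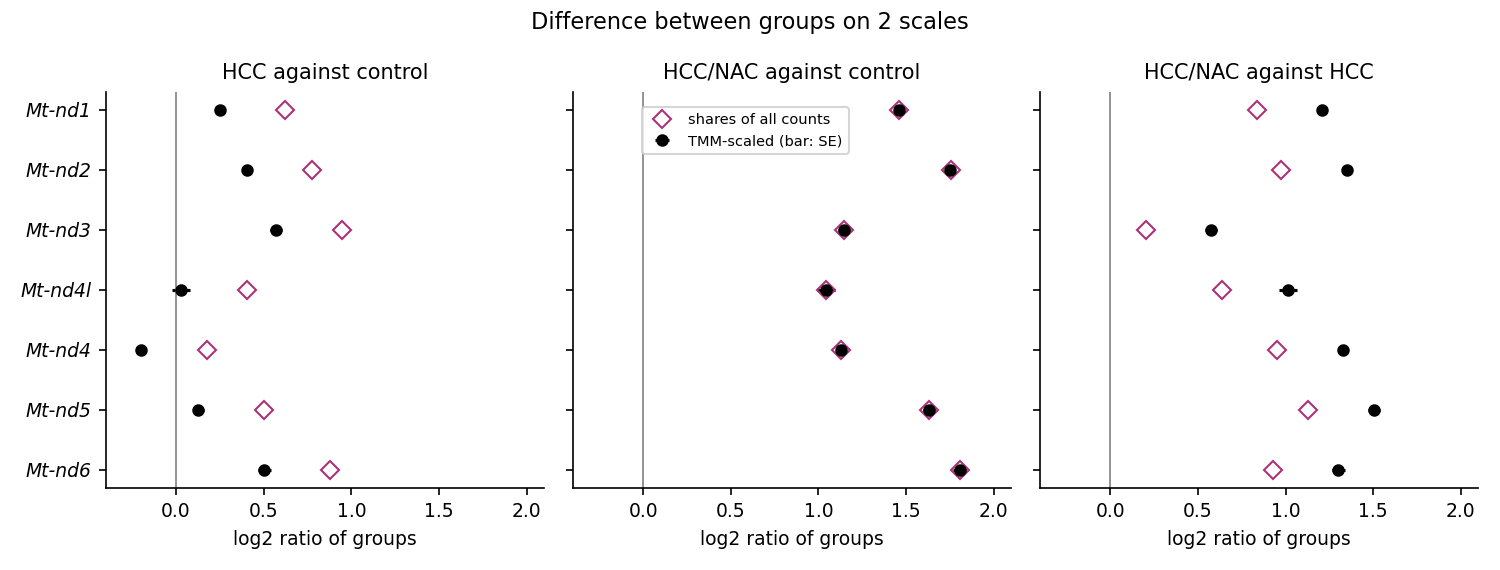
Log2 ratio between groups for each gene in the 3 comparisons, from TMM-scaled counts (filled dots, bars are SE) and from mean shares of all counts (open diamonds). Both scales coincide in HCC/NAC against control and differ by a near-constant step in the other comparisons, where Mt-nd4 is at -0.20 on the TMM scale and at 0.17 as a share in HCC against control.

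The quasi-likelihood test of edgeR, with p-values adjusted over all 16898 IDs and a threshold of 0.05, called 17.0% of IDs higher and 17.8% lower in HCC against control. Of the 7 genes it called 5 higher, 1 lower (Mt-nd4) and gave 1 no call (Mt-nd4l). In HCC/NAC against control 21.3% of IDs were called higher and 24.9% lower, and all 7 genes were called higher. There Mt-nd4l, Mt-nd4 and Mt-nd3 were 2.06-fold, 2.18-fold and 2.21-fold above control, Mt-nd1 was 2.75-fold above it, and Mt-nd5, Mt-nd2 and Mt-nd6 were 3.10-fold, 3.37-fold and 3.49-fold above it. In HCC/NAC against HCC 11.2% were called higher and 16.5% lower, and all 7 genes were again called higher. Since these contrasts were known when the genes were chosen, the counts are a description and support nothing. All calls, also those over all IDs, rest on a spread between libraries that may be technical. HCC/NAC against control and HCC/NAC against HCC share the HCC/NAC libraries, and both comparisons against control share the control libraries. HCC against control and HCC/NAC against HCC share the HCC libraries with opposite sign, so these steps are not independent.

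The median log2 fold change of the 7 genes was 0.25 in HCC against control, 1.46 in HCC/NAC against control and 1.30 in HCC/NAC against HCC. Over all IDs tested the medians were 0.051, 0.048 and -0.051. Relative to that median, Mt-nd4l in HCC against control turned to -0.022, whereas the other 20 values kept their sign. The genes spread by 0.77 on the log2 scale between the lowest and the highest in HCC against control, by 0.76 in HCC/NAC against control and by 0.93 in HCC/NAC against HCC. The highest standard error of any gene was 0.052 in each comparison.

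**Figure D3:**
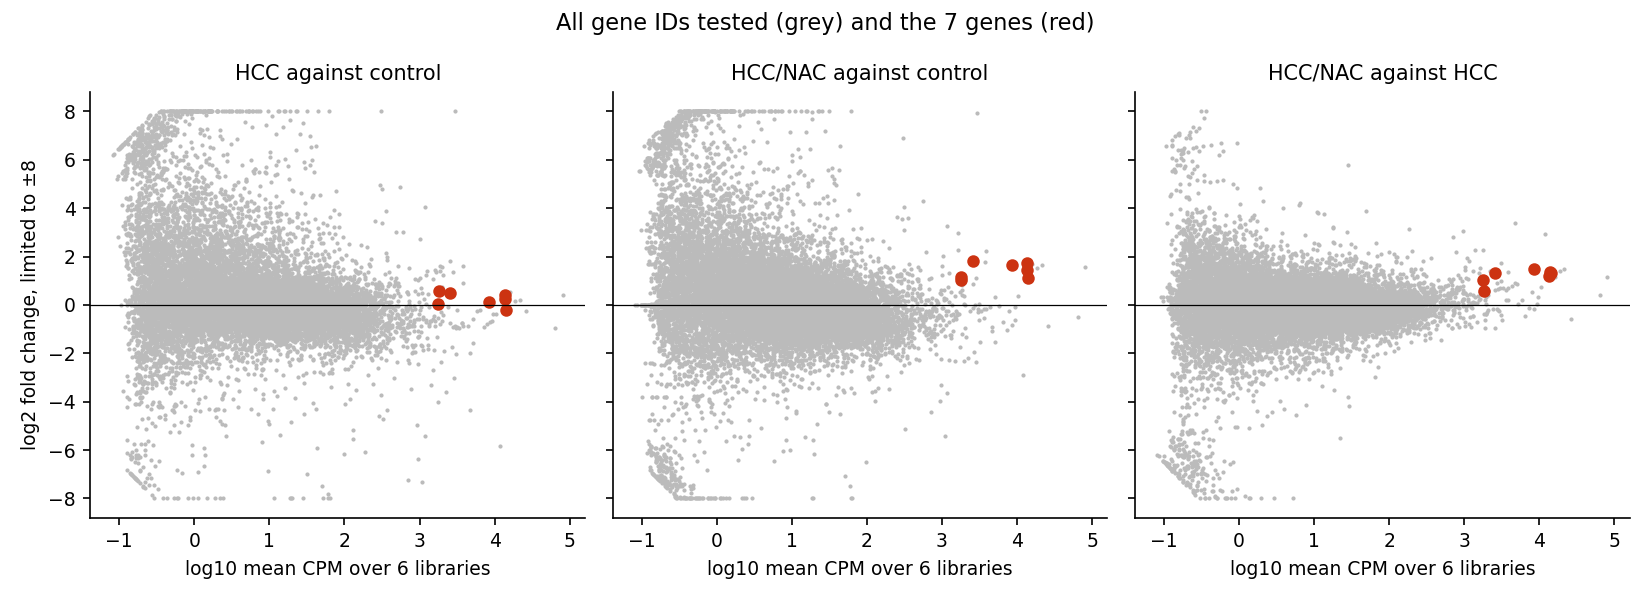
Log2 fold change against log10 of the mean CPM over the 6 libraries for all 16898 IDs tested (grey) and the 7 genes (red), with values beyond ±8 drawn at that limit. The 7 genes lie among the most abundant IDs, between -0.20 and 0.57 in HCC against control, between 1.04 and 1.80 in HCC/NAC against control and between 0.57 and 1.50 in HCC/NAC against HCC.

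The make-up of the summed counts was also set side by side between groups. Shares within the 7 genes, and ratios of counts between them, are free of library scaling. They are not corrected for gene length, so only the same share or ratio in different groups can be compared, and not the level of a gene with that of another. Mt-nd4 supplied 30.2% ± 0.32 (SD, n = 2) of the counts of the 7 genes in controls. The figure was 23.5% ± 0.094 (SD, n = 2) for HCC and 24.0% ± 0.43 (SD, n = 2) for HCC/NAC. Mt-nd2 went the other way, from 21.0% ± 0.049 (SD, n = 2) for control to 24.8% ± 0.71 (SD, n = 2) for HCC and 25.8% ± 0.42 (SD, n = 2) for HCC/NAC. Both carcinogen-treated groups thus stood on the same side of control for Mt-nd4 and for Mt-nd2. For Mt-nd5, the other antiporter-like subunit, their means lay on opposite sides of control, and for Mt-nd6 on the same side. The prefix of the deposited names also separates control from both treated groups. If it stands for a batch, batch and treatment cannot be told apart here. That limit holds for shares and ratios alike, although both are free of library scaling.

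For Mt-nd3, HCC and HCC/NAC stood on opposite sides of control. It supplied 3.34% ± 0.14 (SD, n = 2) of these counts for control, 4.44% ± 0.11 (SD, n = 2) for HCC and 2.70% in both HCC/NAC libraries. Mt-nd5 supplied 14.2% ± 0.29 (SD, n = 2) for control, 13.9% ± 0.63 (SD, n = 2) for HCC and 16.0% ± 0.31 (SD, n = 2) for HCC/NAC, so that control and HCC overlapped and HCC/NAC was above both. Mt-nd1 took 23.8% ± 0.32 (SD, n = 2), 25.3% ± 0.30 (SD, n = 2) and 23.8% ± 0.44 (SD, n = 2) in control, HCC and HCC/NAC, where control and HCC/NAC overlapped. Mt-nd4l took 3.78% ± 0.25, 3.45% ± 0.26 and 2.84% ± 0.18 (SD, n = 2 each), and Mt-nd6 took 3.75% ± 0.058, 4.75% ± 0.11 and 4.78% ± 0.061 (SD, n = 2 each).

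**Figure D4:**
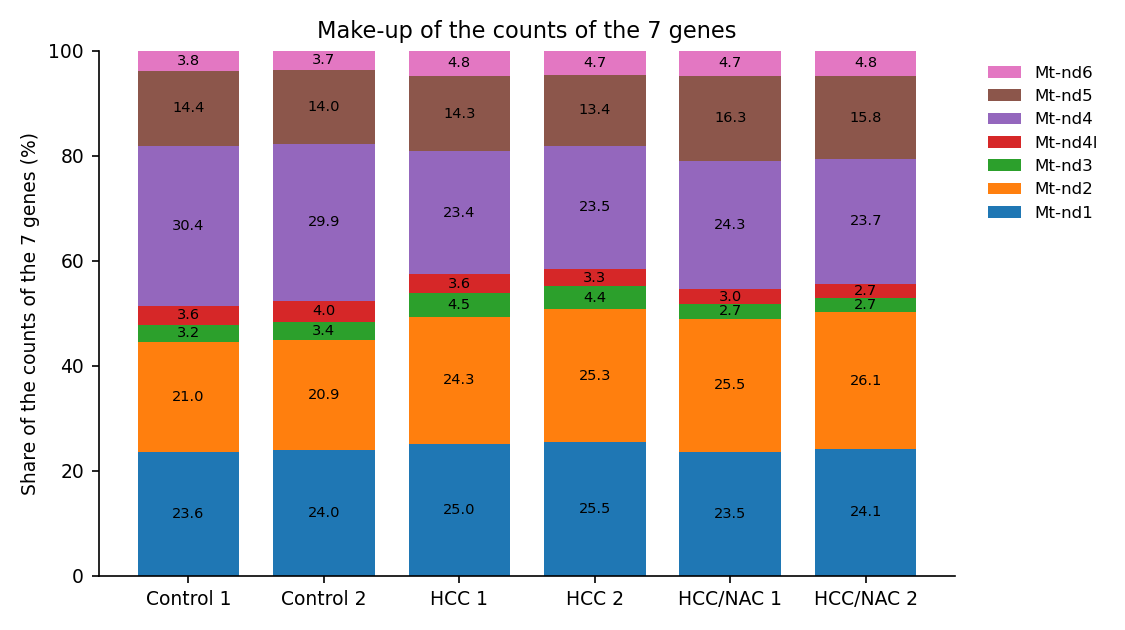
Make-up of the summed counts of the 7 genes in each library, in percent of that sum, not corrected for gene length. The part of Mt-nd4 is near 30% in both control libraries and between 23.4% and 24.3% in the other 4.

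The ratios between pairs of genes show these differences library by library. Of the 21 pairs, 20 did not overlap in HCC against control, 19 in HCC/NAC against control and 18 in HCC/NAC against HCC. A lack of overlap was thus common among the pairs. The ratio of Mt-nd4 to Mt-nd1 counts was 1.29 and 1.25 in control, 0.935 and 0.924 in HCC, and 1.03 and 0.983 in HCC/NAC. Both treated groups were below control without overlap, with HCC lowest. The ratio of Mt-nd4 to Mt-nd2 was 1.45 and 1.43 in control, 0.964 and 0.931 in HCC, and 0.955 and 0.910 in HCC/NAC, so that HCC and HCC/NAC overlapped and both were well below control.

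For Mt-nd3 against Mt-nd1 the ratio was 0.138 and 0.143 in control, 0.180 and 0.171 in HCC, and 0.115 and 0.112 in HCC/NAC. HCC was above control and HCC/NAC below it. Among the 21 pairs, Mt-nd3 against Mt-nd5 differed most between HCC/NAC and HCC, with a log2 ratio that was 0.93 lower in HCC/NAC. Mt-nd3 against Mt-nd4 differed most between HCC and control, with a log2 ratio 0.77 higher in HCC, and between HCC/NAC and control that pair differed by 0.019 with overlapping libraries. The median difference over the 21 pairs, regardless of sign, was 0.32 on the log2 scale in HCC against control, 0.35 in HCC/NAC against control and 0.29 in HCC/NAC against HCC.

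Mt-nd6, the gene of the opposite strand, had 3.94 and 3.85 counts for each 100 counts of the 6 other genes in control. It had 5.07 and 4.90 in HCC, and 4.97 and 5.07 in HCC/NAC. Both treated groups were above control and overlapped with each other. This ratio also depends on how poly(A) selection captured each RNA, which was not tested. Against its neighbour Mt-nd5 the ratio was 0.263 and 0.265 in control, 0.338 and 0.348 in HCC, and 0.291 and 0.305 in HCC/NAC. No groups overlapped, as was common among the pairs. The ratio of Mt-nd4l to Mt-nd4, which share a messenger RNA, was 0.119 and 0.132 in control, 0.155 and 0.139 in HCC, and 0.122 and 0.114 in HCC/NAC. There control and HCC/NAC overlapped, and HCC was above both. The HCC libraries stood apart from the controls by less than they differed from each other. Both counts are also uncertain because of the overlapping reading frames.

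**Figure D5:**
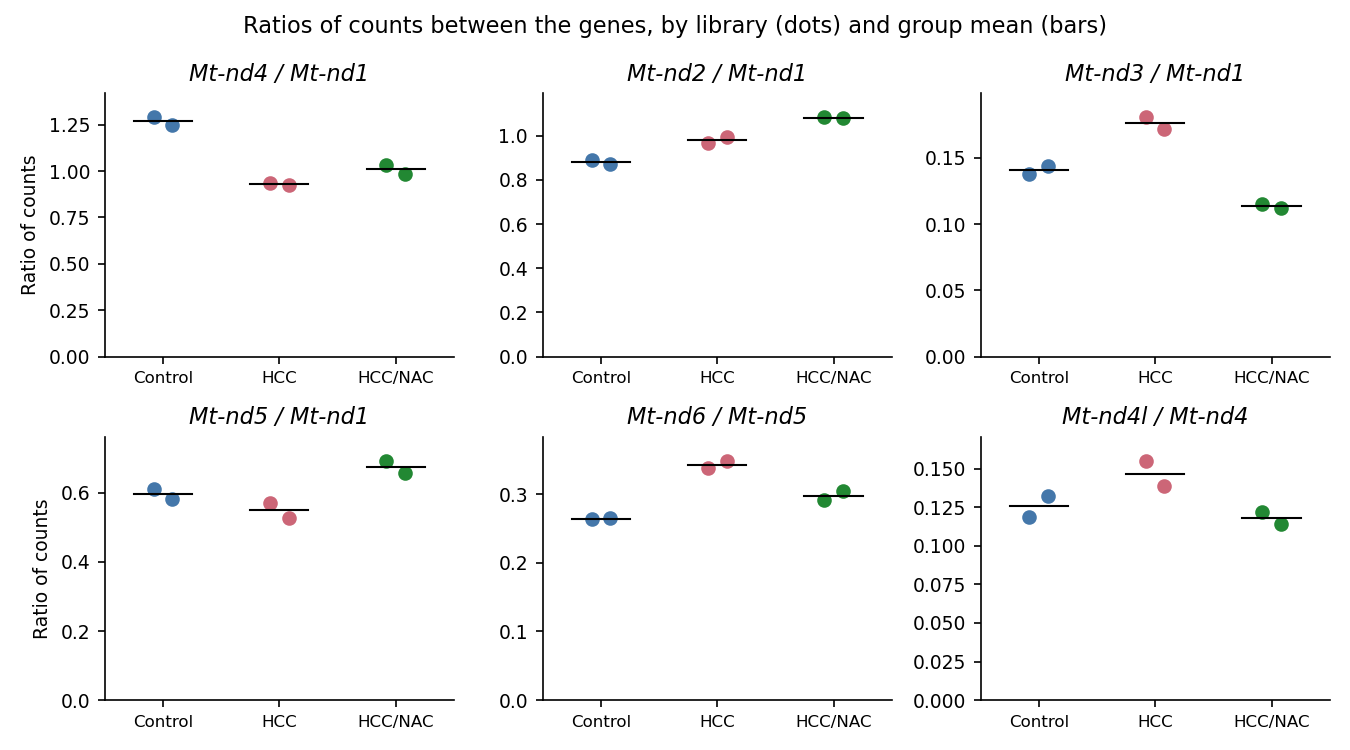
Ratio of counts between pairs of the genes, with 1 dot per library and a bar at the mean of the 2 libraries of a group. Mt-nd4 to Mt-nd1 is highest in control (1.29 and 1.25), Mt-nd2 to Mt-nd1 is highest in HCC/NAC, and Mt-nd3 to Mt-nd1 is highest in HCC (0.180 and 0.171).

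The abundance of other transcripts also moved with the HCC/NAC group. The 10 most abundant IDs outside the 7 genes took 23.8% ± 0.015 (SD, n = 2) of the control counts, 23.6% ± 0.22 (SD, n = 2) of those of HCC and 33.7% ± 0.041 (SD, n = 2) with NAC. The identity of these IDs was not analysed, and their part in the result was not tested. Taken as a percentage of the counts of all other IDs, the 7 genes stood at 3.28% for control, 4.84% for HCC and 9.56% for HCC/NAC. With the 10 IDs removed from the denominator, they stood at 4.17%, 6.04% and 13.2%. Leaving the 7 genes out of the denominator cannot change the order of the groups, because that percentage rises with the share itself. Removing the 10 IDs raised HCC/NAC most, as they held the largest part of its counts. The unchanged order is therefore no check of the result.

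The IDs most like these genes in pattern were sought among 7475 other IDs with a mean of at least 10 CPM. Likeness was the root mean square difference over the 6 libraries between the centred log2 CPM of an ID and that of the mean of the 6 genes other than Mt-nd6. ENSRNOG00000018246 was nearest at 0.057, with 20.0 and 19.9 CPM in control, 22.7 and 22.2 CPM in HCC, and 45.5 and 48.3 CPM in HCC/NAC. ENSRNOG00000024445 followed at 0.059, with 11.2 and 10.7, 13.6 and 11.9, and 26.8 and 27.1 CPM in the same order. Mt-nd1 itself was at 0.047, nearer than any of these IDs. Being part of the mean lowers the distance of each of the 6 genes, so they and the other IDs are not compared on equal terms. The 5 other genes in that mean were at 0.14 to 0.24 and Mt-nd6 was at 0.19, and 161 IDs outside the family were nearer to it than Mt-nd3.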

How the data were processed

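Poly(A)-selected liver RNA was sequenced in 6 libraries, 2 per group, per the labels' protocols. The submitters' processing notes name STAR, featureCounts, FastQC and edgeR, with no versions. For the genome build, annotation, strand and multi-mapping settings, nothing is given in the sources used here, so reads shared with nuclear copies of mitochondrial DNA are uncertain. The files as deposited hold raw counts per Ensembl ID, and 0 rows lacked an ID. The gene symbols come with the choice of the 7 IDs. The genes and lists were chosen with earlier results of these data known. The reference table paired 0 Ensembl IDs with symbols and no mitochondrial gene was matched in it, so levels per coding length, the lists of nuclear complex I genes and the cell type markers were not used. The named genes were the 7 IDs and the 2 IDs nearest in pattern (log2 CPM, prior count 2).

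Shares and CPM were computed from the counts. Background calls came from edgeR 4.0.16 in R 4.3.3, with filterByExpr, TMM and 1 quasi-likelihood model of all 6 libraries (3 residual degrees of freedom). SEs derive from its F statistic. The model was also run on simulated counts with 200 changed IDs in random directions. Far more IDs were called here, so that run cannot check the scaling of these data. Alternatives were other scalings, filters, DESeq2 1.42.0, the replicate block, compared groups only, and leaving out each library. TMM from IDs of at least 10 CPM was added after seeing the data.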

Additional observations from a re-analysis of the deposited data

How the results depend on the processing

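All called values of the 7 genes in HCC/NAC against control and against HCC kept their direction and call in the 112 alternative values of each comparison (16 settings). In HCC against control 107 of 112 did. The settings reuse the same libraries, and the comparisons were known when the genes were chosen, so kept calls are no independent support. Mt-nd4 turned from -0.20 to 0.17 with library totals only, which left 0 genes called lower, and the uncalled Mt-nd4l turned from 0.030 to -0.021 without control replicate 1 and to -0.051 without HCC replicate 1. Mt-nd4l was called higher with library totals (0.40) and with TMM from IDs of at least 10 CPM (0.15). In HCC against control upper-quartile scaling gave -0.12 for Mt-nd4 and 0.21 for Mt-nd5, and TMM from IDs of at least 10 CPM gave -0.080 and 0.25. The median of all IDs moved, relative to TMM, by 0.37 (HCC against control) and -0.37 (HCC/NAC against HCC) with library totals, by 0.14 (HCC/NAC against control) with upper-quartile scaling, and by 0.12 and 0.21 (HCC and HCC/NAC against control) with TMM from IDs of at least 10 CPM.

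The summed log2 difference in HCC against control was 0.16 as reported, 0.24 with upper-quartile scaling, 0.54 with library totals, 0.28 with TMM from IDs of at least 10 CPM, 0.20 with the stricter filter (1 CPM in 4 libraries), 0.19 with the compared groups only, and 0.16 to 0.21 without single libraries. In HCC/NAC against control it was 1.45, then 1.52 with RLE and DESeq2, 1.59 with upper-quartile scaling, 1.67 with TMM from IDs of at least 10 CPM, 1.56 with the stricter filter, 1.50 with the compared groups only, and 1.41 to 1.51 without single libraries. In HCC/NAC against HCC it was 1.29, then 1.35 with RLE, DESeq2, upper-quartile scaling and the stricter filter, 0.92 with library totals, 1.38 with TMM from IDs of at least 10 CPM, 1.34 with the compared groups only, and 1.24 to 1.30 without single libraries. The cause of these shifts was not tested.

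The summed share of 3.18%, 4.61% and 8.72% in control, HCC and HCC/NAC became 3.28%, 4.84% and 9.56% without the 7 genes in the denominator, and 4.17%, 6.04% and 13.2% without the 10 most abundant other IDs. Without single libraries 4254 to 6858 IDs were called in HCC against control, 6700 to 7646 in HCC/NAC against control and 3093 to 5075 in HCC/NAC against HCC, where 4686 were called with all libraries and 3093 without HCC replicate 1. The replicate numbers share only a number: replicate differences correlated across IDs between groups at -0.007 to 0.007. With the replicate block 5982, 7650 and 4861 IDs were called, and the calls of the 7 genes were the same. The nearest IDs in pattern were the same with a prior count of 0.5.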
